A study of Mus musculus with 3 samples.

Results

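The genes described are 5 prostanoid receptors (Ptger1, Ptger2, Ptger3, Ptger4 and Ptgir) and 5 receptors for sphingosine 1-phosphate, S1P (S1pr1, S1pr2, S1pr3, S1pr4 and S1pr5). They were taken by name, and each of the 10 had 1 probe set that names no other gene, out of 19938 genes measured. RNA came from bone marrow cells sorted as KLS SLAM: they lack mature lineage markers, CD48 and CD41 and carry CD150, c-Kit and Sca-1, a phenotype that enriches for long-term haematopoietic stem cells. The mice were wild-type C57Bl/6 animals of 6 to 10 weeks, and the labels name no treatment. All 3 single-colour arrays carry this 1 label, so there is no comparison between groups. Whether they came from different mice is not stated, so the spread between them may be technical.

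Both families are G protein-coupled receptors for lipids made by neighbouring cells or carried in blood. Prostaglandin E2 binds the products of Ptger1 to Ptger4 (EP1 to EP4) and prostacyclin binds that of Ptgir (IP). EP2, EP4 and IP raise cyclic AMP through Gs, EP3 mainly lowers it through Gi, and EP1 raises calcium. Prostaglandin E2 is known for increasing the number and engraftment of blood stem cells through cyclic AMP. S1P is high in blood and lymph and low in tissue, and cells follow this gradient out of the marrow and lymphoid organs mainly through S1P1, which couples to Gi, while S1P2 and S1P3 also reach Gq and G12/13, and S1P4 and S1P5 reach Gi and G12/13.

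Of the 10 receptor genes, 6 gave a signal above the background limit on all 3 arrays, beside 36.8% of all genes. They were Ptger1, Ptger3, Ptger4, S1pr1, S1pr2 and S1pr4, so 3 of 5 in each family. Ptger2 and S1pr3 were below the limit on every array, and Ptgir and S1pr5 passed it on some arrays. The limit on each array was the 95th percentile of 1227 olfactory, vomeronasal and taste (chemosensory) receptor genes, which marrow cells are not expected to use, and lay at 6.30, 5.98 and 5.77 log2 intensity on arrays 1, 2 and 3. On a stricter limit, the 99th percentile of the same genes, 0 of the 10 passed on all arrays, beside 17.4% of all genes. Against the 95th percentile of 114 keratin, keratin-associated and crystallin genes, whose median on array 1 was 5.54 log2 against 4.39 for the chemosensory genes, 0 of 10 passed as well, beside 10.5% of all genes. With the 90th percentile of the chemosensory genes 7 passed, S1pr5 being added, beside 50.6% of all genes, and a pass on at least 2 arrays also gave 7, beside 48.8%. The 6 receptors therefore lay between a lenient and a strict limit. Each probe set has its own affinity, so a signal below a limit does not show absence, and the levels of different genes are not ranked.

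**Figure D1:**
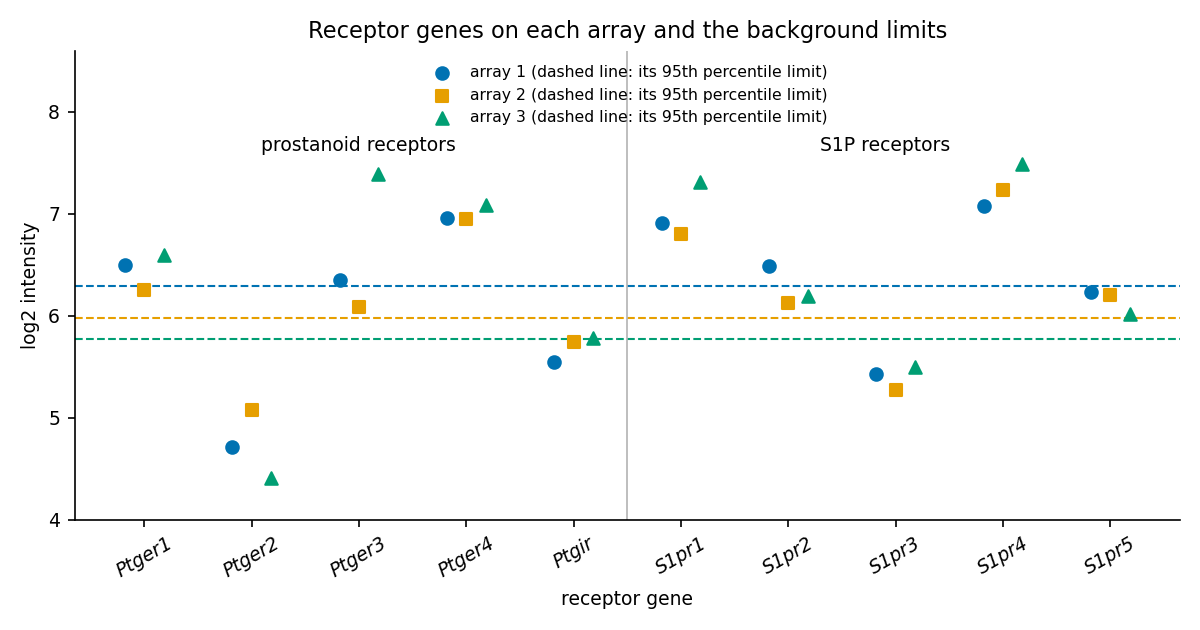
Log2 intensity of each receptor gene (horizontal axis) on arrays 1, 2 and 3 (circles, squares and triangles), with a dashed line in the same colour for that array's background limit (6.30, 5.98 and 5.77). Ptger4, S1pr1 and S1pr4 sit at least 0.61 above the limit on every array, Ptger2 and S1pr3 sit below it on every array, and Ptger3 stands out by its high value of 7.39 on array 3.

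Upstream sequences are shown for 4 receptors because they include windows rich and poor in G and C and receptors on either side of the limit: Ptger4, S1pr2 and S1pr4 were above the limit on all arrays and Ptger2 on none. RefSeq promoters of build GRCm38.p6 matched 8 of the 10 genes by symbol. Each line gives the 250 bases before the annotated start, 5′ to 3′ on the gene's strand. Capitals mark GC boxes (GGGCGG or its complement CCGCCC) and the full cyclic AMP response element (TGACGTCA, a palindrome).
Ptger4, chr15:5244188-5244437, minus strand: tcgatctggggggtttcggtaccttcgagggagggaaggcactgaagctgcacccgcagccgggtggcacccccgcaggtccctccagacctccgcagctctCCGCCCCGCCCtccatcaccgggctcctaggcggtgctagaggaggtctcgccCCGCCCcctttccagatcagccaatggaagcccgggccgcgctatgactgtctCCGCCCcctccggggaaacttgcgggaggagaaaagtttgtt
S1pr2, chr9:20976794-20977043, minus strand: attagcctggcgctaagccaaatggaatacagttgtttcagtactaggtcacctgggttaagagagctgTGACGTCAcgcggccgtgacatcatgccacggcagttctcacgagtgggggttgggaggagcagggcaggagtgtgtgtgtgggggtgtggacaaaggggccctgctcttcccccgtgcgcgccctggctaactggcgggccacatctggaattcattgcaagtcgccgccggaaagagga
S1pr4, chr10:81500138-81500387, minus strand: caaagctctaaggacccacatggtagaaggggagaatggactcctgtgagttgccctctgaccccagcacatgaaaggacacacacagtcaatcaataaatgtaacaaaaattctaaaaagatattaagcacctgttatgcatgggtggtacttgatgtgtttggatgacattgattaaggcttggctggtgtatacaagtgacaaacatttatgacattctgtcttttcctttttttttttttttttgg
Ptger2, chr14:44987861-44988110, plus strand: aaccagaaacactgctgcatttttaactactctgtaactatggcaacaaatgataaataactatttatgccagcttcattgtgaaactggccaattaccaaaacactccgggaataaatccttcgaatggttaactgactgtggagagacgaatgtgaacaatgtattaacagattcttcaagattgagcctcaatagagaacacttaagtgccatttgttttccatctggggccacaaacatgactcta

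Windows rich in A and T belonged to a receptor above the limit, S1pr4, as well as to a receptor below it, Ptger2. The Ptger4 window was 66.8% G and C, with 19 CpG dinucleotides and 4 GC boxes, of which the first and second share a base. That of S1pr2 was 59.2% G and C with 14 CpGs, no GC box and 1 full cyclic AMP response element, which 1.55% of all 32851 promoters in the table hold. The S1pr4 window was 38.8% G and C with 0 CpGs, although its gene was above the limit on all arrays, and the Ptger2 window was 38% G and C with 3. Among the other matched genes, Ptger3 had 21 CpGs and 3 GC boxes, S1pr5 22 CpGs and 2 GC boxes, S1pr3 9 CpGs and 1 GC box, and Ptgir 5 CpGs and 2 GC boxes. A GC box was found in 32.7% of all promoters, in 57.4% of those of genes above the limit on all arrays and in 37.8% of those of the other measured genes. Promoters of genes above the limit on all arrays had a median of 16 CpGs, and those of the other measured genes had 7. A match of letters is a description and does not show that a factor binds there.

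Of the receptors that raise cyclic AMP, Ptger4 was above the limit and Ptger2 was not. Ptger4 (probe set 10427461, chromosome 15), which encodes EP4, was at 6.96, 6.95 and 7.09 log2 on arrays 1, 2 and 3. The values were nearly level, 0.66, 0.97 and 1.32 above the limits of the arrays. Its mean was 7.00 ± 0.08 log2 (SD, n = 3), the smallest spread of the 10 genes (0.012 after quantile normalisation), and 7.5% of the 1920 genes of like mean level (within 0.25 log2) had a smaller SD. Ptger4 exceeded the 99th percentile limit on 2 of 3 arrays, missing it on array 1.

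Ptger2 (probe set 10414271, chromosome 14), which encodes EP2, was at 4.71, 5.08 and 4.41 log2. Every array was below its limit, by between 0.90 and 1.59 log2. These values exceeded 61.5%, 78.2% and 62.7% of the olfactory, vomeronasal and taste receptor genes on the 3 arrays, so they lay inside the range of genes that the cells should lack. The mean was 4.73 ± 0.34 log2 (SD, n = 3), with array 2 highest and array 3 lowest.

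Ptgir (probe set 10550394, chromosome 7), the prostacyclin receptor, was at 5.54, 5.74 and 5.78 log2. It reached the limit on array 3, by 0.01 log2, and was below it by 0.75 on array 1 and 0.24 on array 2. The mean was 5.69 ± 0.13 log2 (SD, n = 3). Its own values spanned 0.24 log2, less than the 0.53 log2 between the limits of arrays 1 and 3.

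The EP receptors that do not act through Gs, Ptger1 and Ptger3, were both above the limit on all arrays. Ptger3 (probe set 10497079, chromosome 3), which encodes the Gi-coupled EP3, was at 6.35, 6.08 and 7.39 log2. Array 3 was high, 1.18 log2 above the mean of the other arrays, while arrays 1 and 2 were only 0.05 and 0.11 above their limits. The lowest and highest values differed 2.48-fold (linear intensity). The mean was 6.61 ± 0.69 log2 (SD, n = 3), and 94% of the 2557 genes of like mean level had a smaller SD. Its spread did not pass limma's F test of variation over all genes (adjusted p = 0.967).

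Markers of other cells are given beside the high value of Ptger3 on array 3. After adjustment over all genes, limma's F test of variation called 0 of them, beside 0% of all genes. With no call in the whole table, this does not show that the markers were steady. Ptger3 departed by 0.78 log2 from its own mean on array 3, and 94% of the 2557 genes of like mean level had a smaller SD. The median departure of those genes there was 0.00 log2. A median averages out single genes, so it does not show how unusual 0.78 is. Megakaryocyte and platelet markers, cells in which EP3 is known to act, averaged 6.50, 6.25 and 6.82 log2 over the 4 measured genes. Pf4 was at 6.82, 7.15 and 7.71, Ppbp at 6.44, 5.60 and 6.61 and Gp9 at 6.39, 6.13 and 6.76, each highest on array 3, while Itgb3 was at 6.33, 6.12 and 6.23. Other marker lists were also highest on array 3: endothelial markers averaged 6.35, 6.29 and 6.46 log2, and genes of the sort gate 6.95, 7.09 and 7.22. The averages of the remaining marker lists were highest on array 1 or 2. Markers of mast cells, basophils and eosinophils, where EP3 is also known, averaged 5.42, 5.29 and 5.24 over 6 genes. Among them the basophil gene Mcpt8 was highest on array 3, at 5.83, 6.66 and 7.22, and Prg2 of eosinophils was highest on array 1, at 8.08, 6.32 and 5.96. Cpa3, Epx and the IgE receptor genes Ms4a2 and Fcer1a were below the limit on every array. The part of these cells in the Ptger3 signal was not tested.

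Ptger1 (probe set 10573210, chromosome 8), which encodes EP1, was at 6.50, 6.25 and 6.59 log2. It passed the limits by 0.20, 0.27 and 0.83 log2, with array 2 lowest. The mean was 6.45 ± 0.18 log2 (SD, n = 3).

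S1pr1, the egress receptor, was above the limit on every array. S1pr1 (probe set 10501586, chromosome 3) was at 6.91, 6.80 and 7.31 log2. Array 3 was highest, and the excess over the limits was 0.61, 0.82 and 1.54. The mean was 7.01 ± 0.27 log2 (SD, n = 3), and it exceeded the 99th percentile limit on 2 of 3 arrays. T cells and endothelium are known to carry much S1P1. Of the T and NK cell markers 1 of 9 was above the limit on all arrays, Nkg7, at 6.44, 5.99 and 7.40 log2. Of the CD3 chain genes of the T cell receptor complex, Cd3e was at 6.44, 5.91 and 5.91, above the limit on arrays 1 and 3, and Cd3d and Cd3g were below it on every array, at 4.44 ± 0.15 and 4.85 ± 0.27 log2 (SD, n = 3). Of the endothelial markers 6 of 8 were above it, Tek at 6.37 ± 0.08, Pecam1 at 6.53 ± 0.45, Emcn at 7.30 ± 0.56, Stab2 at 6.15 ± 0.14, Egfl7 at 7.65 ± 0.11 and Vwf at 6.42 ± 0.14. Cdh5 (VE-cadherin) and Kdr (a VEGF receptor) were below it on every array, at 5.42 ± 0.23 and 5.09 ± 0.19. The part of T cells and endothelium in the S1pr1 signal was not tested.

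Of the S1P receptors that also reach G12/13, S1pr2 and S1pr4 were above the limit on all arrays, S1pr5 missed it on a single array and S1pr3 was below it throughout. S1pr4 (probe set 10371217, chromosome 10), known mainly from blood cells, was at 7.08, 7.23 and 7.49 log2. It passed the limits by 0.78, 1.25 and 1.72 log2, and array 3 was highest. The mean was 7.27 ± 0.21 log2 (SD, n = 3), and the SD was 0.12 after quantile normalisation. It exceeded more than 91% of the keratin and crystallin genes on each array, at 91.2%, 93.0% and 97.4%.

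S1pr2 (probe set 10591412, chromosome 9), the receptor that restrains migration in many cells, was at 6.49, 6.13 and 6.20 log2. It passed the limits by 0.19, 0.15 and 0.43 log2, and array 1 was highest. The mean was 6.27 ± 0.19 log2 (SD, n = 3), and on no array did it exceed the 99th percentile limit.

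S1pr5 (probe set 10591494, chromosome 9), known for the exit of NK cells from marrow, was at 6.23, 6.20 and 6.02 log2. It was 0.06 below the limit on array 1 and 0.23 and 0.25 above it on arrays 2 and 3, so without array 1 it joined the receptors above the limit, 7 of 10 beside 46.9% of all genes. Without array 2 and without array 3 the count was 6, beside 38.7% and 37% of all genes. The mean was 6.15 ± 0.12 log2 (SD, n = 3). The NK cell genes Ncr1 and Klrb1c, the latter encoding NK1.1, were below the limit on every array, at 3.74 ± 0.41 and 4.03 ± 0.15 log2, while Nkg7, also of NK cells, was above it on all arrays at 6.61 ± 0.72. The part of NK cells in the S1pr5 signal was not tested.

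S1pr3 (probe set 10405179, chromosome 13), common in vessel wall and stroma, was at 5.43, 5.28 and 5.50 log2. All arrays were below their limits, by 0.87, 0.70 and 0.27. The mean was 5.40 ± 0.11 log2 (SD, n = 3). The RefSeq annotation places an overlapping gene, Gm32834, at this locus, and it is not analysed here.

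**Figure D2:**
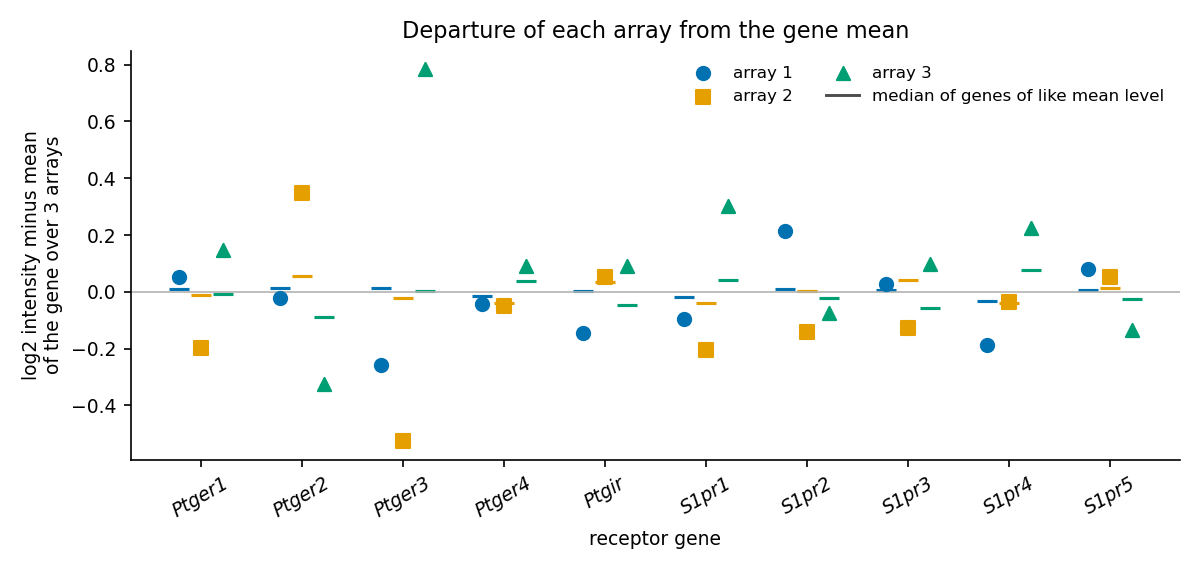
Departure of each array's log2 intensity from the gene's mean over the 3 arrays (vertical axis) for each receptor gene (symbols), with short bars for the median departure of genes of like mean level. Array 3 is the highest for 7 of the 10 receptors, and Ptger3 departs by 0.78 there.

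Across the 10 receptors the arrays differed in a partly shared order. Array 3 was highest for 7 of 10 and array 2 lowest for 6 of 10. Among the 6 receptors above the limit on all arrays, array 3 was highest for 5, with S1pr2 as the exception. The like count was not made for all genes above the limit, so whether 5 of 6 is unusual among them is not known. Over all genes, array 3 was highest for 5941 and array 2 lowest for 5737 of 19938. The shift of genes at the same level was small, but on array 3 their median departures rose with level over the 10 level windows. They ran from -0.09 log2 in the window of lowest mean level (Ptger2) to 0.08 in that of highest (S1pr4). Array 3 was lowest for 752 of the 1227 chemosensory genes. The genes above the limit of the single array numbered 7838, 9793 and 11011 on arrays 1, 2 and 3. The order of the arrays was not tested, and genes on an array share its RNA and processing.

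No receptor passed the test of variation between arrays. The test, called limma's F test here, was a one-sided F test computed on the variance trend that limma fits. It sets a gene's variance over the arrays against the trend at its mean level, with Benjamini-Hochberg adjustment over all 19938 genes. It called 0 of 10 receptors, beside 0% of all genes, with adjusted p from 0.967 for Ptger3 to 0.998 for Ptger4. At an unadjusted p under 0.05 it called 1 receptor, Ptger3, beside 5.1% of all genes. The F distribution was fitted to these same variances, so this share follows largely from the fit. The SD was below the trend for 8 of 10, with Ptger2 and Ptger3 above it, at 1.50 and 2.64 times the trend. With 3 arrays and no adjusted call in the whole table, this test gives no support for equal levels.

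**Figure D3:**
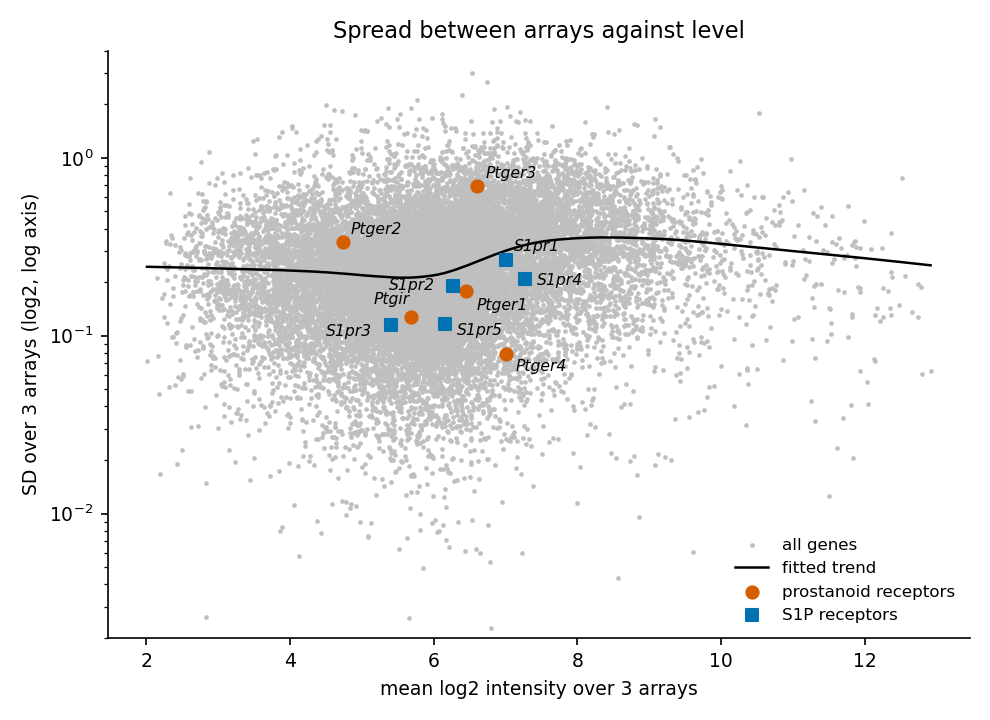
SD over the 3 arrays (vertical log axis, log2 units) against mean log2 intensity for all 19938 genes (grey), the fitted trend (line) and the receptors (orange circles for prostanoid, blue squares for S1P). Ptger3 and Ptger2 lie above the trend and the other 8 receptors below it.

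For Ptger3, the receptor with the largest spread, the genes with the most similar departures over the 3 arrays were Pus3, Lamtor5, Slfn8, Fam98a and Rnf146. They were chosen among the 7344 other genes above the limit on all arrays, by the root mean square difference between departures from the gene mean, which ran from 0.004 to 0.03 log2. Pus3, a pseudouridine synthase gene, was at 7.37, 7.11 and 8.42 log2. In all, 49 genes had a root mean square difference from the departures of Ptger3 under 0.1 log2, whatever their own level. Over only 3 arrays such likeness is a description.

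The other prostanoid receptors and the enzymes that make and clear prostanoids were covered unevenly. Of the 4 other prostanoid receptors 1 was above the limit on all arrays, Tbxa2r, the thromboxane receptor, at 6.52 ± 0.14 log2 (SD, n = 3). The prostaglandin D2 receptors Ptgdr and Ptgdr2 were at 4.62 ± 0.11 and 6.03 ± 0.18, and the prostaglandin F receptor Ptgfr was at 5.10 ± 0.19. Of 13 measured synthesis genes 6 were above it, with a list median of 6.12 log2 beside 5.96 for all genes. Pla2g4a, which releases arachidonate, was above it at 7.47 ± 0.41, and Ptges3, a prostaglandin E synthase that is also an Hsp90 co-chaperone, at 10.22 ± 0.34. The inducible cyclooxygenase gene Ptgs2 was at 6.13, 5.64 and 5.18, below the limit on every array, and Ptges, Ptges2 and Ptgis were at 5.87 ± 0.16, 5.29 ± 0.10 and 6.12 ± 0.09. Ptgs1 is not analysed here. Of the 5 transport and breakdown genes 3 were above it, the exporter Abcc4 at 6.64 ± 0.40 and the reductases Ptgr1 and Ptgr2 at 7.31 ± 0.27 and 8.08 ± 0.61, while the degrading enzyme Hpgd and the uptake carrier Slco2a1 were below it on every array at 5.25 ± 0.17 and 5.64 ± 0.18.

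For S1P, a kinase, an exporter and the lyase were above the limit. Of the 5 synthesis and export genes 2 were above it on all arrays, the kinase Sphk2 at 6.97 ± 0.28 log2 (SD, n = 3) and the exporter Spns2 at 7.51 ± 0.20. Sphk1 was at 6.05 ± 0.24, the blood cell exporter Mfsd2b at 5.84 ± 0.10 and the carrier Apom at 4.70 ± 0.14. Of the 6 breakdown genes 1 was above it, the lyase Sgpl1 at 7.06 ± 0.24. The phosphatase genes Sgpp1 and Sgpp2 were at 6.47 ± 0.21 and 5.72 ± 0.08, and Plpp1, Plpp2 and Plpp3 at 6.02 ± 0.61, 6.09 ± 0.38 and 5.64 ± 0.47. Sgpp1 missed the limit on array 1 alone. Of the 14 genes that supply sphingosine 8 were above it, among them Sptlc1 and Sptlc2 of the first enzyme at 7.17 ± 0.72 and 8.81 ± 0.44 and the ceramide synthases Cers2, Cers4 and Cers5 at 8.39 ± 0.22, 6.80 ± 0.23 and 7.45 ± 0.41, with Sptlc3 at 4.67 ± 0.11. Of 9 receptors for other lysophospholipids 2 were above it, Lpar6 at 7.76 ± 0.37 and Gpr132 at 6.66 ± 0.24, while Lpar1, Lpar2, Lpar3, Lpar4 and Gpr34 were at 5.74 ± 0.17, 5.51 ± 0.01, 4.81 ± 0.21, 5.25 ± 0.76 and 3.54 ± 0.27.

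Downstream of the receptors, most measured G protein alpha subunit genes were above the limit on all arrays. Of 7 measured alpha subunits 5 were above it: Gnai2 at 10.06 ± 0.30 log2 (SD, n = 3) and Gnai3 at 9.56 ± 0.17 of the Gi class, Gnaq at 7.78 ± 0.34, Gna12 at 6.56 ± 0.20 and Gna13 at 8.36 ± 0.26. Gnai1 was at 5.13 ± 0.37 and Gna11 at 5.82 ± 0.87, and Gnas, which encodes Gs, is not analysed here.

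In the cyclic AMP branch, 3 of 9 adenylyl cyclases were above the limit on all arrays, Adcy4, Adcy7 and Adcy9 at 6.41 ± 0.18, 7.41 ± 0.17 and 7.05 ± 0.46 log2 (SD, n = 3), while the means of Adcy1, Adcy2, Adcy3, Adcy5 and Adcy6 lay between 4.74 and 6.15. Of the 11 protein kinase A and CREB genes 8 were above it, including the catalytic subunit Prkacb at 8.38 ± 0.83, the regulatory subunits Prkar1a and Prkar2b at 7.83 ± 0.08 and 7.98 ± 0.18 and the transcription factor Creb1 at 8.69 ± 0.24. Prkar1b, Prkar2a and the inducible Crem were not, at 6.05 ± 0.35, 6.45 ± 0.62 and 5.19 ± 0.31. Of 10 cyclic AMP phosphodiesterases 2 were above it, Pde4b at 6.35 ± 0.20 and Pde7a at 6.98 ± 0.29, and the means of Pde3a, Pde3b, Pde4a, Pde4c and Pde4d lay between 4.92 and 6.27.

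Among genes that switch such receptors off, 8 of 12 were above the limit on all arrays. They included the receptor kinase Grk6 at 6.53 ± 0.09 log2 (SD, n = 3), the arrestins Arrb1 and Arrb2 at 6.53 ± 0.17 and 7.17 ± 0.33 and Rgs1 at 8.77 ± 0.29, while Grk3, Grk5, Rgs3 and Rgs16 were not, at 6.03 ± 0.37, 5.99 ± 0.90, 6.10 ± 0.22 and 6.21 ± 0.19. Of 7 genes that set S1P1 levels or are known to respond to prostaglandin E2, 6 were above it. Klf2, which drives S1pr1 transcription in lymphocytes, was at 7.23 ± 0.15 and the endocytic dynamin Dnm2 at 7.99 ± 0.22. Cd69, which removes S1P1 from the surface, was at 6.41, 4.63 and 6.35, low on array 2. The prostaglandin E2 responders Cxcr4, Birc5, Ctnnb1 and Ccnd1 were at 10.27 ± 0.62, 6.81 ± 0.08, 7.80 ± 0.13 and 6.49 ± 0.15. Over the 13 lists 55 of 112 measured genes (49.1%) were above the limit, beside 36.8% of all genes. With the 99th percentile 32 were, beside 17.4% of all genes, and with the keratin and crystallin limit 20, beside 10.5%. The lists were chosen with earlier results of these data known, so these shares are a description only.

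**Figure D4:**
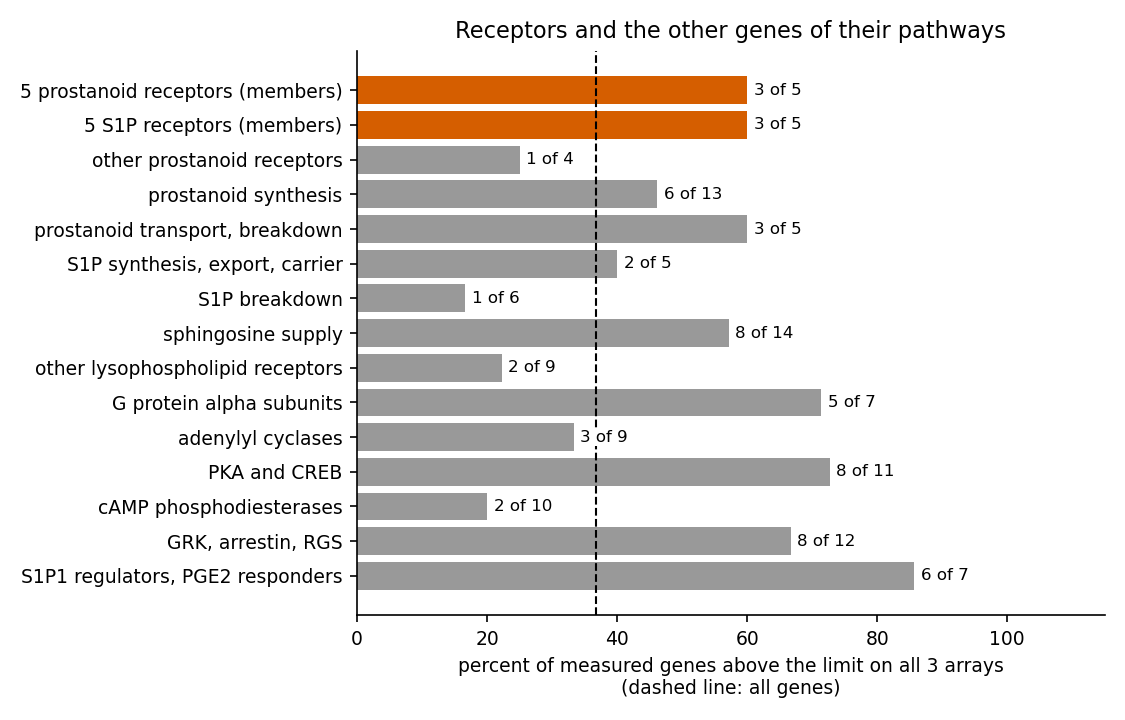
Percent of measured genes above the background limit on all 3 arrays for the 10 receptors (orange, by family) and for 13 lists of other genes of their pathways (grey), with counts beside each bar and a dashed line at 36.8% for all genes. Both receptor families stand at 3 of 5, other prostanoid receptors at 1 of 4 and the protein kinase A and CREB list at 8 of 11.

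The labelled cell type was checked against its markers. Of the 4 measured sort genes, Kit and Slamf1 (CD150) were above the limit on all arrays, and Itga2b, which encodes the excluded CD41, was as well. The excluded Cd48 was at 4.61, 5.62 and 6.14 log2, highest on array 3, where it passed the limit. Ly6a (Sca-1) is not analysed here. Of 7 stem cell markers 6 were above the limit, with list means of 7.83, 8.15 and 8.08 log2 on arrays 1, 2 and 3. Of 8 granulocyte markers 7 were above it, with list means of 8.83, 9.64 and 9.54 log2. These 7 were S100a8 at 12.08 ± 0.31 (SD, n = 3), S100a9 at 12.37 ± 0.38, Mpo at 7.90 ± 0.38 and Ngp at 10.26 ± 0.96, with Camp at 9.11 ± 0.63, Ltf at 8.78 ± 0.56 and Mmp8 at 7.99 ± 0.80. Elane, at 6.18 ± 0.34, was not above the limit on all arrays. Of the other lists, B cell, erythroid and mast cell markers had 1 of 6, 1 of 5 and 1 of 6 above it, monocyte markers 2 of 5, and stromal and megakaryocyte markers 3 of 6 and 3 of 4. The part of such cells in the receptor signals was not tested, and in sorted bulk RNA fewer cells of a type and less RNA per cell cannot be told apart.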

How the data were processed

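The 3 arrays measured biotin-labelled, amplified RNA of sorted cells, per the labels' protocols. The deposited values are intensities on a linear scale (2.82 to 18384), which, per the submitters' processing notes, the authors made in Affymetrix Expression Console by RMA. The sources used here do not give versions or a genome build. RMA forces the probe values of arrays run together onto 1 distribution. Which arrays were run together is not stated, and median intensities here were 60.4, 58.0 and 56.7. The log2 of each intensity was taken. Of 35554 probe sets, 21789 name 1 gene in the platform annotation, 1621 several and 12144 are not listed. Log2 values of probe sets of a gene were averaged (19938 genes, 999 with several).

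A gene was above the limit when it exceeded, on every array, that array's 95th percentile of olfactory, vomeronasal and taste receptor genes. Variation was tested by an F test on the variance trend fitted in limma 3.58.1 (R 4.3.3, statmod 1.5.0). It used 2 degrees of freedom and a robust trend (4.34 prior degrees of freedom), at an adjusted p of 0.05. In a check on simulated data the test called 0.03% of 19738 unchanged genes. It called 31% of 100 genes with the SD raised 10-fold and 79% of 100 with it raised 40-fold. Smaller increases in SD are therefore mostly missed. The number of arrays limits the precision. Members and gene lists were chosen with earlier results of these data known, and 1 list is not reported here. Named are all members, all genes of lists with at most 8 measured, otherwise the first 6 as written and those on the rarer side of the limit where 4 or fewer (marker lists by their defining genes), and the 5 genes most like the receptor with the largest spread. Alternatives changed the limit, background genes, scaling, pseudocount, probe set rule, variance prior, dim-gene filter and arrays used.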

Additional observations from a re-analysis of the deposited data

How the results depend on the processing

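The number of receptors above the limit, 6 of 10, was 0 with the 99th percentile and 0 with the keratin and crystallin limit. It was 7 with the 90th percentile and with a pass on at least 2 arrays. It was 6 with median-centred arrays and with probe sets naming several genes. These 2 counts could not change, since centring shifts a gene and its limit alike and no such probe set names a receptor of these families. With quantile-normalised arrays and with the brightest probe set it was also 6, and the share of all genes was not counted there. Leaving out each array in turn gave 6 to 7 receptors. The pathway genes above the limit were 55 of 112, beside 36.8% of all genes. They were 32 with the 99th percentile (17.4% of all genes) and 20 with the keratin and crystallin limit (10.5%). They were 66 with the 90th percentile (50.6% of all genes), 57 with the brightest probe set and 55 to 68 without each array. The median level over the receptors, 6.36 log2, was 6.62 with a pseudocount of 16, which raises dim values by construction, and 6.26 to 6.44 without each array. The test of variation called 0 receptors and 0 genes under each of its 8 alternatives, with 1010 to 1156 genes at an unadjusted p under 0.05 wherever all genes were tested and 456 of 9628 brighter genes. With quantile-normalised arrays the SD was 0.012 against 0.079 for Ptger4 and 0.120 against 0.208 for S1pr4. It rose for Ptgir, to 0.143 from 0.127, and for S1pr3, to 0.147 from 0.115. For the other receptors it fell, only slightly for S1pr2 and S1pr5. For Ptger3 the adjusted p of limma's test ran from 0.775 to 0.998. No paired analysis was possible because all arrays belong to 1 group. Without detection calls or probe-level data, a dim signal cannot be separated from background for a single gene.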

Other observations

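Some genes around these receptors differed between the arrays with a larger SD than every receptor other than Ptger3. They were chosen here with their values in view. Rgs18, a regulator of G protein signalling of blood cells, was at 8.24, 9.81 and 10.09 log2 on arrays 1, 2 and 3, low on array 1. Gna11, a Gq class alpha subunit gene, was at 6.82, 5.28 and 5.36, high on array 1. The receptor kinase gene Grk5 was at 6.85, 5.05 and 6.07, and Prkacb, the catalytic subunit gene of protein kinase A, at 9.18, 7.53 and 8.44, both low on array 2. Asah1, the acid ceramidase gene, was at 7.49, 6.37 and 6.42, and the carbonyl reductase gene Cbr1 at 6.78, 7.83 and 8.05. After adjustment over all genes, limma's F test of variation called none of these genes, beside 0% of all genes.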
